A study of Homo sapiens with 4 samples.

Results

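The nuclear genes for subunits of the mitochondrial respiratory chain were examined for open chromatin at their 5′ ends in HepG2, a line of human liver cancer cells. The members were the autosomal protein-coding genes of GENCODE 44 (hg38) with an NDUFA, NDUFB, NDUFC, NDUFS or NDUFV symbol and a number, SDHA to SDHD, or a symbol that begins with UQCR, ATP5F, ATP5M or ATP5P. This gave 67 of 19111 autosomal coding genes. Of these, 35 belong by symbol to complex I, 4 to complex II, 9 to complex III and 19 to complex V, the ATP synthase. NDUFA4 is counted under complex I by its symbol, although its product is now placed with cytochrome c oxidase, and UQCRHL and ATP5MGL are like copies of UQCRH and ATP5MG.

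The respiratory chain sits in the inner mitochondrial membrane. Complex I (NADH dehydrogenase) and complex II (succinate dehydrogenase) pass electrons to ubiquinone, complex III passes them on to cytochrome c, and complex IV passes them to oxygen. Complexes I, III and IV pump protons, and complex V uses the resulting gradient to make ATP. Most subunits are encoded in the nucleus and a few by mitochondrial DNA, so complexes I, III, IV and V are built from products of both genomes. Liver cells are rich in mitochondria, and these genes are transcribed in nearly every cell type from promoters that are mostly rich in CpG.

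ATAC-seq, in which a transposase cuts and tags accessible DNA, was performed on 4 libraries of 50000 wild-type (WT) HepG2 cells each. There were 2 control libraries, labelled untreated, and 2 libraries from cells given 5 µM tazemetostat, dissolved in DMSO, for 48 h. Tazemetostat inhibits EZH2, the methyltransferase that places H3K27me3, a histone mark of repressed chromatin. All libraries come from 1 cell line, and nothing in the labels says that the 2 libraries of a group are separate cultures, so p-values measure only the spread between these libraries, which may be technical.

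Peaks had been called by the authors in each library on its own, and each carries a normalised tag count, which is the number of tags in the peak scaled to a library of 10 M mapped tags. The libraries held 17191428 to 26564400 mapped tags. Control libraries had 26133 and 34768 peaks, and tazemetostat libraries had 55313 and 54157. The share of tags inside peaks was 4.32% and 5.69% in the controls and 11.5% and 9.81% under tazemetostat, and the fragment length recorded in the file headers was 200 bp in both controls and 144 bp in both tazemetostat libraries. These properties of whole libraries move with the treatment and touch every count and fold change given for the members. Their part in those values was not tested. Among hepatocyte genes used to check the label, APOA1, APOB and HNF4A had a peak within 1 kb of the 5′ end in all 4 libraries. ALB had one in the tazemetostat libraries only, AFP had one in tazemetostat replicate 1 only, and TTR, SERPINA1 and FGB had none. None of 4 endothelial genes had such a peak in any library, and PTPRC, CD3E, COL1A1 and PDGFRB had none. LYZ, a leukocyte gene, had one in all 4 libraries, CD14 and COL1A2 had one in tazemetostat replicate 1 only, and ACTA2 had one in all but control replicate 1.

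To show what lies at these 5′ ends, promoter sequences of 300 bases (250 before and 50 from the start on) were taken from RefSeq (GRCh38.p14). A sequence was given for 52 of the 67 members and for 14616 autosomal coding genes in all. Their median GC content was 62.2%, against 63.0% over all coding promoters, and the median number of CpG was 24.5 against 22.0. Short consensus sequences of 8 factors or elements were searched on both strands. The YY1 consensus AANATGGCG was found in 15 of 52 member promoters (28.8%) and in 4.99% of all coding promoters. The NRF1 consensus GCGCATGCG was found in 9 members (17.3%, against 2.77%), the ETS and GABPA consensus CCGGAAGT in 8 (15.4%, against 6.45%) and the CREB consensus TGACGTCA in 5 (9.62%, against 2.7%). The SP and KLF consensus GGGGCGGGG was found in 8 members (15.4%, against 23.1%), the NFY consensus GCCAATCA in 2 (3.85%, against 4.19%), the ERR consensus TCAAGGTCA in 1 (1.92%, against 0.226%) and the TATA box TATAAA in 5 (9.62%, against 9.72%). A match is a description of letters and not a measured binding site.

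Matches to YY1 lay downstream of the RefSeq start in 13 of the 15 member promoters, where the match began 9 to 42 bases after the start. Over all coding promoters, 64.7% of promoters with a YY1 match had it from the start on. The sites below are windows of 30 bases read 5′ to 3′ on the strand that spells the consensus, with the matching bases in capitals. They show the same short core in genes of 3 complexes and in genes with and without peaks. NDUFA7 (chr19:8321342-8321371, minus strand), NDUFS3 (chr11:47579079-47579108, plus strand), SDHB (chr1:17054003-17054032, minus strand), UQCR10 (chr22:29767386-29767415, plus strand) and UQCRC1 (chr3:48609604-48609633, minus strand) had a peak within 1 kb of the RefSeq start in all 4 libraries. NDUFS6 (chr5:1801405-1801434, plus strand) and NDUFS7 (chr19:1383914-1383943, plus strand) had none in any library.
NDUFA7: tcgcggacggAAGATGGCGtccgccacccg
NDUFS3: gcatctgagtAACATGGCGgcggcggcggt
SDHB: gtcaggagccAAGATGGCGgcggtggtcgc
UQCR10: actgtgaagaAACATGGCGgccgcgacgtt
UQCRC1: ctgcagctggAAGATGGCGgcgtccgtggt
NDUFS6: ccagcggcgcAAAATGGCGgcggcgatgac
NDUFS7: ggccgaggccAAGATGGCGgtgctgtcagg

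Matches to NRF1 began upstream of the start in all 9 member promoters, and 6 of them began in the last 100 bases before it. That of NDUFA8 began 4 bases before the start and runs across it. NDUFB4 (chr3:120596167-120596196, plus strand), ATP5F1C (chr10:7788145-7788174, plus strand) and ATP5PF (chr21:25735155-25735184, minus strand) had peaks in all 4 libraries. SDHD (chr11:112086753-112086782, plus strand) lacked one in control replicate 1 and NDUFA8 (chr9:122159764-122159793, minus strand) in both controls. NDUFS6 (chr5:1801351-1801380, plus strand) and ATP5ME (chr4:674335-674364, minus strand) had none. The capitals mark the NRF1 consensus.
NDUFB4: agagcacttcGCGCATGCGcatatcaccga
ATP5F1C: gggagcttcgGCGCATGCGcgctgaggcct
ATP5PF: cactcaaagaGCGCATGCGtacagagcaag
SDHD: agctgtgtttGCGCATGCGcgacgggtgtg
NDUFA8: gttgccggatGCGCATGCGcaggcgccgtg
NDUFS6: cagaagccgtGCGCATGCGttagcgctaag
ATP5ME: gccgctgacgGCGCATGCGtgcgcccagct

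The ETS and CREB matches began upstream of the start in every member promoter that held one, and the CREB match of SDHB, which began 4 bases before the start, runs across it. The ETS match of UQCRQ (chr5:132866577-132866606, plus strand), which encodes a small subunit of complex III, and the CREB match of ATP5MC1 (chr17:48892719-48892748, plus strand), the member with the highest tag count, are shown first. They are followed by 3 longer stretches that end at the base before the start and hold no annotated exon. UQCRH (chr1:46303617-46303697, plus strand) holds the ETS consensus and ATP5MC2 (chr12:53676084-53676175, minus strand) holds the NRF1 consensus, both on the opposite strand. NDUFB10 (chr16:1959388-1959537, plus strand) holds none of the 8. It had no peak within 1 kb in any library, but its nearest peaks lay just beyond, 1340 to 1437 bp from the 5′ end. Capitals mark the matches.
UQCRQ: aatggtatctcCCGGAAGTtacctcacgac
ATP5MC1: tggggaatcgaTGACGTCAaccaatgggga
UQCRH: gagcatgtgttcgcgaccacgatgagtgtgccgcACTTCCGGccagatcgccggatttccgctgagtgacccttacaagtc
ATP5MC2: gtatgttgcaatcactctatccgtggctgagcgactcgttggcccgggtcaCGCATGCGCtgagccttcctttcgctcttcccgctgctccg
NDUFB10: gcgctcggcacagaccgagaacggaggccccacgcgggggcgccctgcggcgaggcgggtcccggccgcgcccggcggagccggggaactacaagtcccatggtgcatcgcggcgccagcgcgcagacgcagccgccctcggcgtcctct

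**Figure D1:**
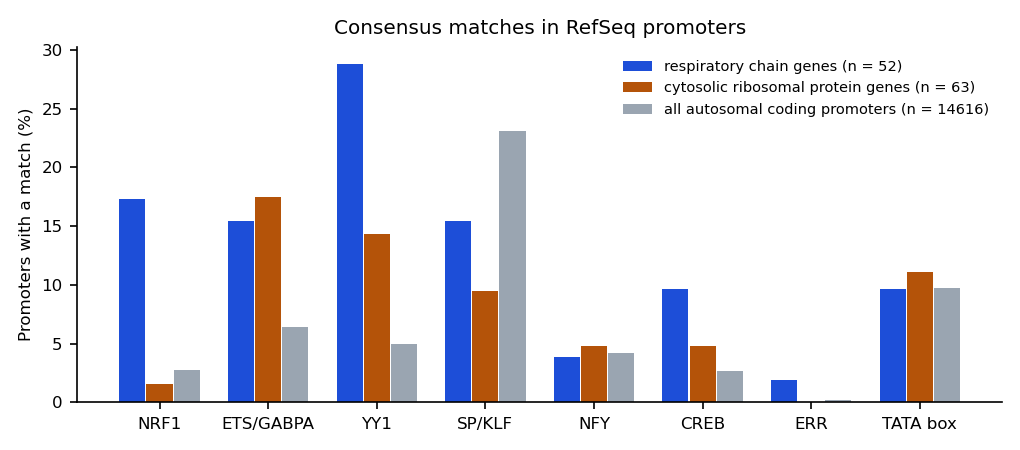
Share of RefSeq promoters (percent, bars) with a match to each of 8 consensus sequences on either strand, for 52 respiratory chain genes, 63 cytosolic ribosomal protein genes and 14616 autosomal coding promoters. The respiratory chain genes stand at 28.8% for YY1 and 17.3% for NRF1, against 4.99% and 2.77% of all coding promoters.

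Cytosolic ribosomal protein genes, which also encode subunits of a large complex made in every cell, are a set of like breadth. Of 63 ribosomal protein promoters, 14.3% held the YY1 consensus, 17.5% the ETS consensus and 1.59% the NRF1 consensus. Among member promoters with the NRF1 consensus, 4 of 9 had a peak within 1 kb of the RefSeq start in all 4 libraries, and among those without it 27 of 43 did, while over all coding promoters the shares were 52.1% with and 34.8% without the consensus. For the YY1 consensus the counts were 8 of 15 and 23 of 37 (58.3% and 34.1% of all coding promoters), and for the ETS consensus 6 of 8 and 25 of 44 (63.0% and 33.4%).

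The first question was at which members the 5′ end was called accessible, and in which libraries. A peak within 1 kb of the GENCODE 5′ end was found in all 4 libraries for 35 of 67 members (52.2%), against 31.7% of all autosomal coding genes. By complex, these were 14 of 35 genes of complex I (40.0%), 2 of 4 of complex II, 5 of 9 of complex III and 14 of 19 of complex V (73.7%). Among the 67 members, 36 and 48 had a peak in the first and second control library, and 54 and 55 in the first and second library of treated cells. Control replicate 1 thus had the fewest, and it also had the fewest mapped tags and the fewest peaks. Cytosolic ribosomal protein genes had a peak in all 4 libraries at 43 of 80 genes (53.8%).

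**Figure D2:**
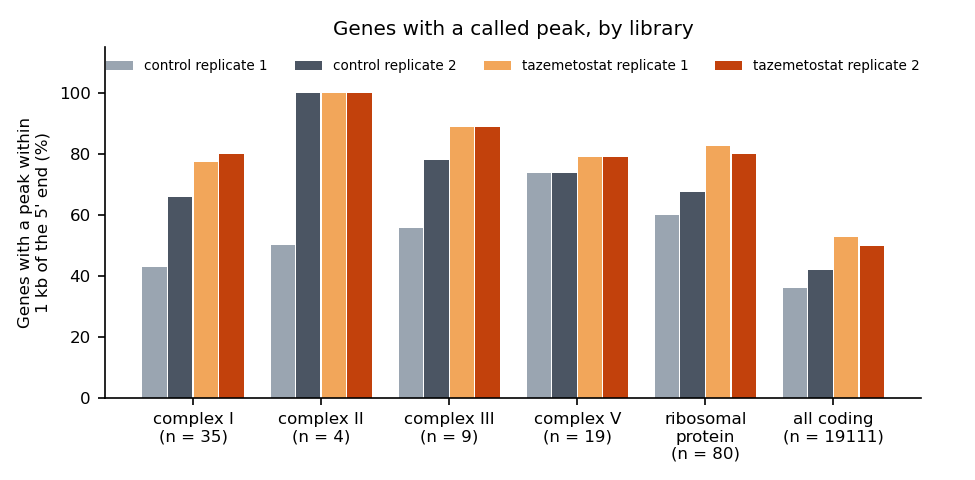
Share of genes (percent, bars) with a peak within 1 kb of the 5′ end in each of the 4 libraries, for the 4 complexes, 80 cytosolic ribosomal protein genes and 19111 autosomal coding genes, with the number of genes under each name. Complex V had a peak at 14 of 19 genes in both control libraries and at 15 of 19 in both tazemetostat libraries, while complex I went from 15 and 23 of 35 genes in the controls to 27 and 28 of 35.

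Another 12 members (7.65% of all coding genes showed this pattern) had a peak in every library but control replicate 1. In complex I these were NDUFA5, NDUFA10, NDUFA12 and NDUFA13, accessory subunits, NDUFB8, an accessory subunit of the membrane arm, NDUFV1 and NDUFV2, which carry the FMN and an iron-sulphur cluster at the NADH site, and NDUFV3. In complex II they were SDHA, the flavoprotein that oxidises succinate, and SDHD, a membrane anchor. In complex III they were UQCRB, which lies at the ubiquinone site, and UQCRFS1, the Rieske iron-sulphur protein. None was in complex V. For some of these the RefSeq start gave another result. NDUFV1 and NDUFV3, with a RefSeq start 1283 and 13665 bp from the GENCODE 5′ end, had a peak within 1 kb of it in all 4 libraries. NDUFA5, with a RefSeq start 43747 bp away, had none there in any library.

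At 5 members a peak was called in both treated libraries but in no control, namely NDUFA8, NDUFB1, NDUFB7, UQCRC1 and ATP5MG (7.46% of the members, with 5.25% of all coding genes showing this pattern). No member had a peak in both controls only. NDUFA6 had a peak in all but control replicate 2, NDUFA9 only in the first and NDUFS4 only in the second tazemetostat library, and NDUFC2 in the second library of each group. NDUFA8 had normalised tag counts of 15.1 and 11.7 in the tazemetostat libraries, NDUFB1 had 22.2 and 13.9, and NDUFB7 had 12.6 and 19.6. A library with no peak has no value there, so no fold change was computed for these 3 genes. UQCRC1 had control peaks 1067 and 1035 bp from the 5′ end, just outside the window, in the same merged region, and it has values in all 4 libraries.

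No peak within 1 kb was found in any library at 11 members (16.4%), against 42.5% of all coding genes. Among them were NDUFA3, NDUFB2, NDUFB10, NDUFS6 and NDUFS7 of complex I, UQCRHL of complex III, and ATP5F1D, ATP5ME, ATP5MGL and ATP5MJ of complex V. Some had peaks just outside the window. NDUFB10 had them 1340 to 1437 bp away in all 4 libraries, NDUFS6 1339 and 1440 bp away in the tazemetostat libraries, and ATP5MGL 1164 bp away in tazemetostat replicate 2. NDUFS7 encodes a core subunit on the electron path to ubiquinone, and ATP5F1D encodes the delta subunit of the rotor. The gene 5′ end of GENCODE is that of the longest extent of a gene, and it is not always the main start. For NDUFB2 and ATP5MJ, the RefSeq start lay 5931 and 6740 bp away and had a peak within 1 kb in all 4 libraries. With the RefSeq start used for the matched genes, an alternative chosen after seeing the data, 40 of 67 members had a peak in all 4 libraries.

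Many of these genes start near a neighbour on the other strand. A coding gene on the other strand had its 5′ end within 1 kb for 27 of 67 members (40.3%), against 13.6% of all coding genes. The distance was 26 bp for SDHD and TIMM8B, 41 bp for NDUFB5 and MRPL47 and for NDUFS6 and MRPL36, 44 bp for ATP5F1A and HAUS1, and 82 bp for UQCRH and LRRC41. It reached 928 bp for NDUFB8 and HIF1AN, and whether such pairs share a promoter was not tested. A peak in all 4 libraries was found for 15 of 27 members with such a partner and for 20 of 40 without, while over all coding genes the shares were 59.1% and 27.3%. A peak between the starts of such a pair cannot be given to 1 gene of the pair.

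**Figure D3:**
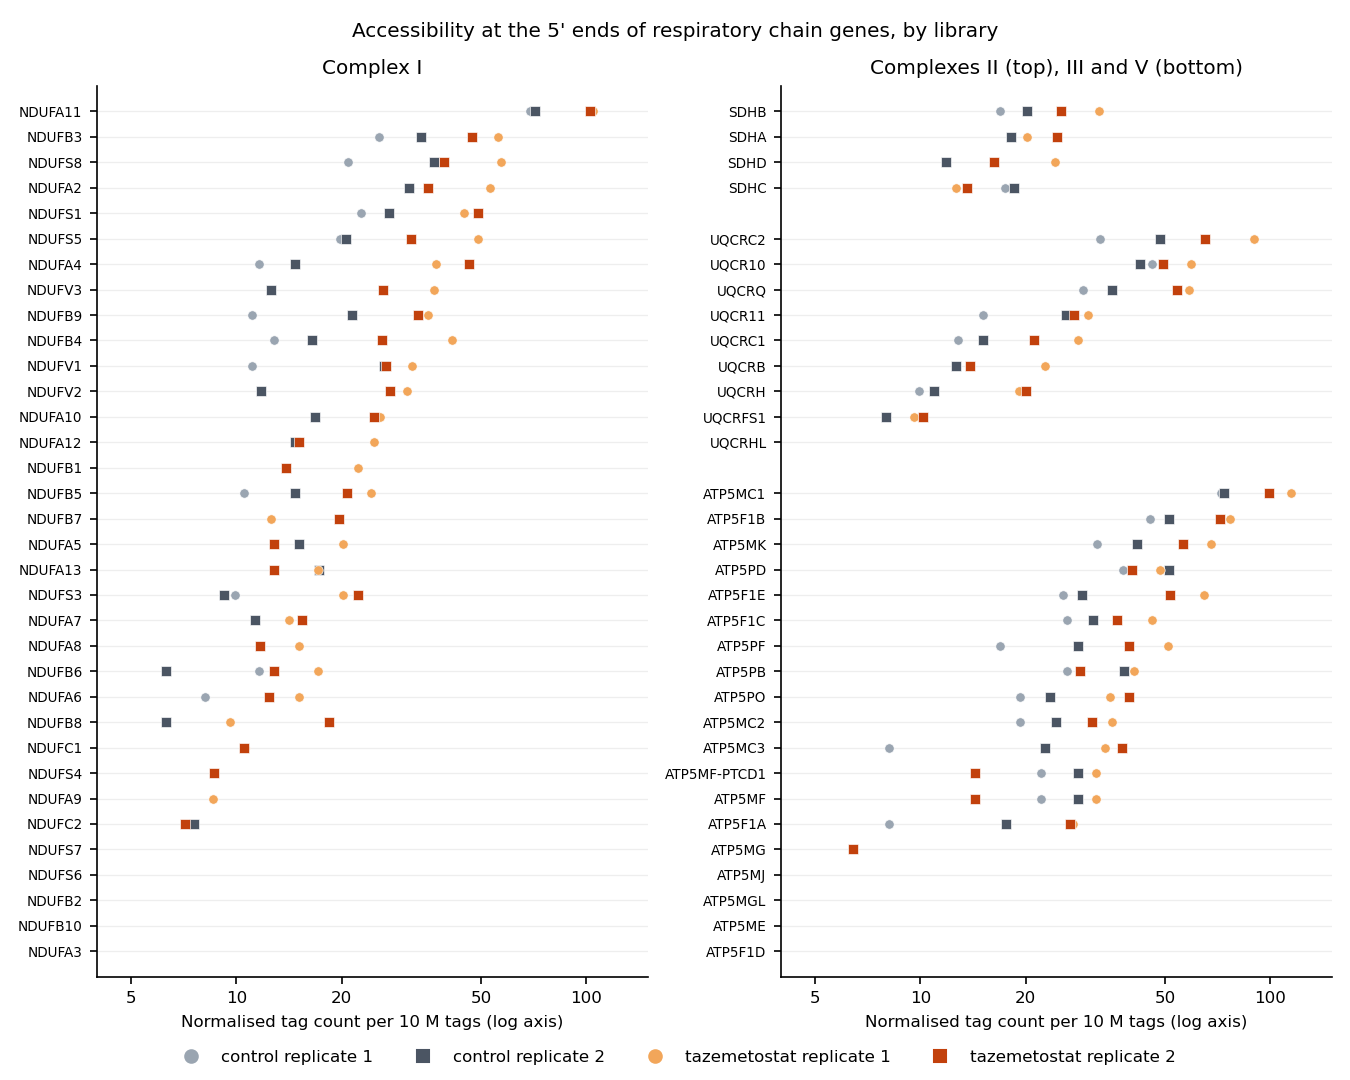
Normalised tag count per 10 M mapped tags (log axis) of the accessible region nearest to the 5′ end of the members, with 1 point for each library that had a peak in that region. Genes are ordered by mean count within complex, a gene with no point had no peak within 1 kb in any library, 8 members such as NDUFA7, NDUFC1 and ATP5MG had further regions in the window that are not plotted, and ATP5MC1 and NDUFA11 stand highest with 69.2 to 114.4.

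The levels of accessibility were then compared among members. Overlapping peaks of the 4 libraries were merged into 80551 regions, of which 15383 held exactly 1 peak in each library and could be tested. The members had 55 distinct nearest regions, and 29 of these were among the tested ones, 11 for complex I, 2 for complex II, 4 for complex III and 12 for complex V. ATP5MF and the read-through gene ATP5MF-PTCD1 share 1 of them. The tested regions have a peak in every library, and they do not stand for all 67 members. NDUFV1 and UQCRC1 are among them although a control peak lay outside the window of 1 kb, 1144 bp from the 5′ end in control replicate 1 for NDUFV1.

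The median over member regions of the mean normalised tag count was 29.2, against 29.1 over the 4360 tested regions at 5′ ends of coding genes and 24.0 over all tested regions. By complex the medians were 25.2 for complex I, 19.6 for complex II, 22.0 for complex III and 34.4 for complex V. The highest level was at ATP5MC1, a gene for the c subunit whose ring turns in the membrane (region chr17:48892124-48893164), with normalised tag counts of 72.1 and 73.9 in the controls and 114.4 and 99.4 under tazemetostat. Next was NDUFA11, an accessory subunit of the membrane arm of complex I, with 69.2 and 71.4 in the controls and 104.8 and 102.8 under tazemetostat. ATP5F1B, the catalytic beta subunit of the ATP synthase, had 45.4, 51.3, 76.6 and 71.9 in the same order of libraries. In all 3 genes both tazemetostat libraries lay above both controls, as at 81.6% of all tested regions. Among tested members the lowest was NDUFB6, an accessory membrane arm subunit, with 11.6, 6.3, 17.1 and 12.8.

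The main comparison asked how accessibility at these genes differed between treated and untreated cells. Across the tested member regions, 27 of 29 had a higher mean under tazemetostat on the scale of mapped tags, and 13 of 29 (44.8%) were higher at an adjusted p below 0.05 in limma with Benjamini-Hochberg adjustment over all tested regions, against 42.7% of all 15383 regions. None was lower at that level, against 0.247% of all regions. At an unadjusted p below 0.05 in limma, 17 members were higher and 0 lower, but the share of all regions at that level was not counted. Groups did not overlap, with tazemetostat higher, at 25 of 29 member regions (86.2%), against 81.6% of all regions and 86.3% of tested regions at coding 5′ ends. The median log2 difference (tazemetostat minus control, on log2 of the normalised tag count plus 1) was 0.74 for the members, 0.70 for all tested regions and 0.73 for tested regions at coding 5′ ends. Both the share called and the median lay near those of all regions.

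The scale decides the size of the differences and, for some members, their direction. When each library was centred on its own median, the median difference of the members was -0.02, 13 of 29 were above 0, and no region, member or other, passed the test in either direction (4 member regions were lower and 0 higher at an unadjusted p below 0.05). With TMM scaling in edgeR and size factors in DESeq2, which also set the bulk of regions to no change, the medians were 0.02 and 0.01. No member passed in either direction. Of all 15383 regions, 23 were higher and 174 lower with TMM, and 3 and 103 with DESeq2. At an unadjusted p below 0.05, 0 members were higher in both, and 4 and 3 were lower. The share of all regions at an unadjusted p was not counted under these 3 scalings. The 13 members called higher on mapped tags, which had the largest differences there, stayed above 0 under all 3. Of the 29 members, 16, 14 and 13 lay below 0 with centring, TMM and DESeq2. No added standard was used here to set the scale, so a general rise in accessibility and a difference between libraries cannot be told apart. Leaving out either tazemetostat library left no member called, leaving out control replicate 1 left 4 and leaving out control replicate 2 gave 18. Over all 15383 regions the corresponding counts of regions called higher were 0 without either tazemetostat library, 3237 and 8398.

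**Figure D4:**
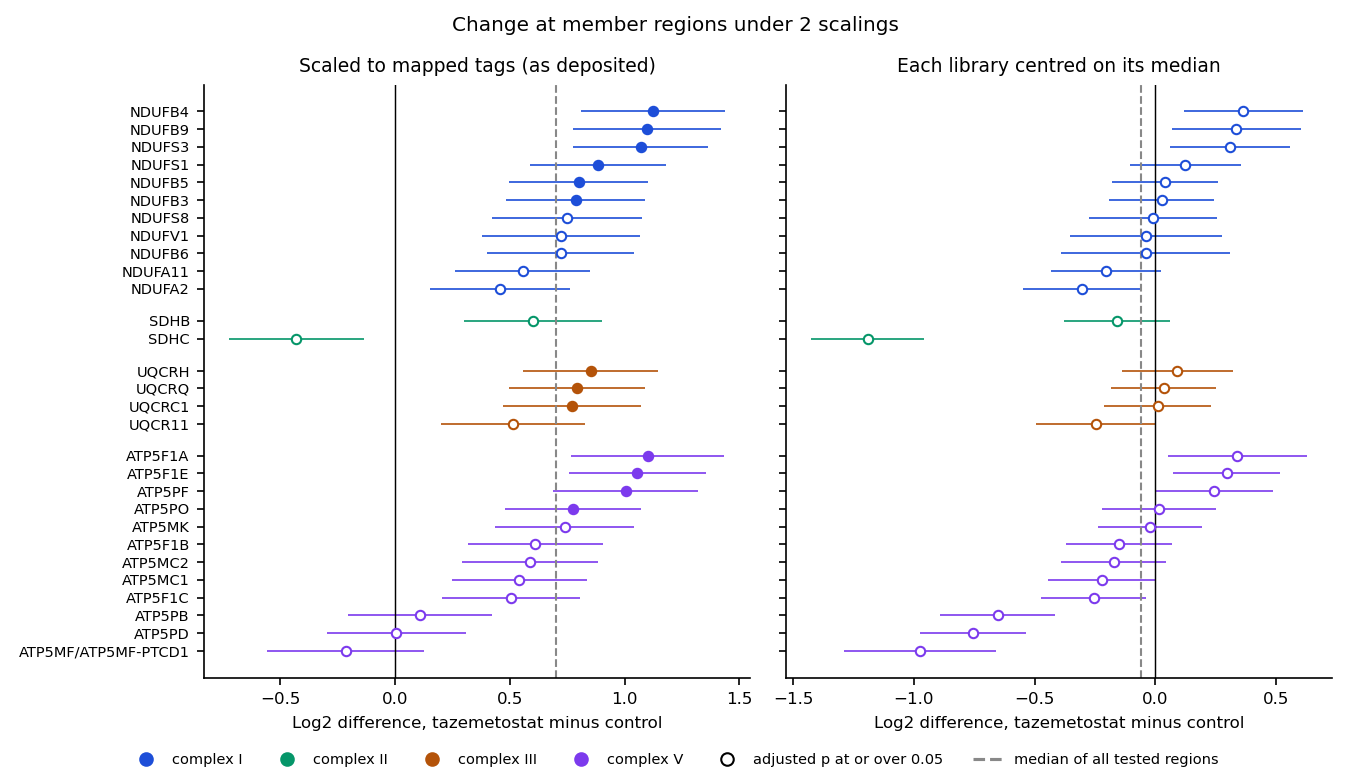
Log2 difference (tazemetostat minus control, points, with the standard error of limma as bars) at 29 tested member regions by complex, with counts scaled to mapped tags (left) and after centring each library on its median (right). Filled points have an adjusted p below 0.05, the dashed line is the median of all 15383 tested regions, and SDHC, ATP5MF, ATP5PD and ATP5PB lie left of the other members in both panels.

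In complex I, 6 of 11 tested regions were called higher, against 42.7% of all regions, and the median log2 difference was 0.79. In all 11 the groups did not overlap with tazemetostat higher, against 81.6% of all regions and 86.3% of tested regions at coding 5′ ends. NDUFB4, an accessory subunit of the membrane arm (region chr3:120595914-120596748), had normalised tag counts of 12.8 and 16.4 in the controls and 41.3 and 26.0 under tazemetostat. Both treated libraries lay above both controls, and the log2 difference of 1.12 ± 0.31 (SE, n = 2 against 2, adjusted p = 0.0148 in limma) was the largest of the 29 tested member regions. NDUFB9, in the same arm, had 11.1, 21.4, 35.3 and 33.1, with a wide gap between the controls. NDUFS3, a core subunit of the arm in the matrix, had 9.89, 9.24, 20.2 and 22.2, a difference of 1.07 ± 0.29 (SE, n = 2 against 2, adjusted p = 0.0143 in limma). The 5′ end of CELF1, on the other strand, is 233 bp from the GENCODE 5′ end of NDUFS3, and the RefSeq start of NDUFS3 is 13738 bp from it. At the RefSeq start another region, which holds the YY1 match printed above, had 12.2, 15.5, 28.2 and 22.6. NDUFS1, the largest core subunit, with iron-sulphur clusters, had 22.7, 27.3, 44.8 and 48.9 (adjusted p = 0.0271 in limma). NDUFB3 and NDUFB5 were the other members called higher, with log2 differences of 0.79 and 0.80.

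The other 5 tested regions of complex I did not pass. NDUFA11 had a log2 difference of 0.56 and NDUFA2, a small accessory subunit in the matrix arm, had 0.46, and both turned below 0 under the 3 other scalings. NDUFS8 had 20.9, 36.6, 56.9 and 39.2, so control replicate 2 lay close to tazemetostat replicate 2. NDUFV1 had 11.1, 26.5, 31.7 and 26.7, where control replicate 2 and tazemetostat replicate 2 were nearly equal, and its log2 difference of 0.72 had an adjusted p of 0.0838 in limma and was below 0 under the 3 other scalings. NDUFB6 had a log2 difference of 0.72 and lay below 0 after median centring. Members with more than 1 peak in a library were left out of this fit and were tested with their peaks summed, where 17 of 34 member regions were called higher, against 40.2% of all 16430 regions. NDUFA4 had summed counts of 11.6, 14.7, 37.3 and 46.3 and, in that fit, a log2 difference of 1.60 ± 0.30 (SE, n = 2 against 2, adjusted p = 0.00653 in limma). NDUFS5 had 19.8, 20.5, 48.9 and 31.6 and a log2 difference of 0.93 (adjusted p = 0.0301 in limma). In both genes the treated libraries lay above the controls, as at 81.6% of all tested regions.

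In complex II neither of the 2 tested regions passed, and the median log2 difference was 0.08. SDHC, a membrane anchor that helps to bind haem and ubiquinone, had at its 5′ end (region chr1:161314035-161314764) normalised tag counts of 17.5 and 18.5 in the controls and 12.6 and 13.6 under tazemetostat. Its means were 18.0 ± 0.707 and 13.1 ± 0.707 (SD, n = 2 each). It was the sole tested member whose groups did not overlap with tazemetostat lower. This pattern was seen at 1.75% of all tested regions and at 11 of the 4360 tested regions at coding 5′ ends. The log2 difference was -0.43 ± 0.29 (SE, n = 2 against 2, adjusted p = 0.2 in limma), and it stayed below 0 under every other scaling, at -1.19 after median centring and -0.16 per kilobase of peak, with adjusted p from 0.0926 (edgeR with TMM) to 0.602 (DESeq2) over the alternatives to limma on mapped tags. An exact permutation of 2 against 2 libraries cannot give a two-sided p below 0.3333. Only 0.138% of tested coding 5′ end regions had a lower log2 difference than SDHC. The tags behind these values were few, with 30, 44, 25 and 36 tags in the 4 libraries.

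SDHB, the iron-sulphur subunit of complex II, had 16.9 and 20.2 in the controls and 32.3 and 25.2 under tazemetostat. Treated libraries lay above controls, and the log2 difference of 0.60 ± 0.30 (SE, n = 2 against 2) had an adjusted p of 0.0947 in limma and was below 0 under median centring, TMM and DESeq2 scaling. SDHA and SDHD had no peak in control replicate 1 and were not tested. SDHA had 18.1 in control replicate 2 and 20.2 and 24.5 under tazemetostat, and SDHD had 11.8 in control replicate 2 and 24.2 and 16.2 under tazemetostat. Of the 4 genes of the complex, SDHB and SDHC thus had a peak in every library and SDHA and SDHD in 3.

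In complex III, 3 of 4 tested regions were called higher, against 42.7% of all regions, and the median log2 difference was 0.78. UQCRH, the hinge protein that helps cytochrome c to dock, had 9.89 and 10.9 in the controls and 19.1 and 20 under tazemetostat, at the region that holds the stretch with the ETS consensus printed above. The replicates were close and the groups far apart, with a log2 difference of 0.85 ± 0.29 (SE, n = 2 against 2, adjusted p = 0.0298 in limma). UQCRQ had 29.1, 35.3, 58.5 and 54.2, and UQCRC1, a core subunit on the matrix side, had 12.8, 15.1, 28.2 and 21.1. The UQCRC1 region was centred 1248 bp from the GENCODE 5′ end, and only in the tazemetostat libraries did its peak reach into the 1 kb window. UQCR11 had 15.1, 26.1, 30.2 and 27.5, a log2 difference of 0.51 that did not pass and was below 0 under the 3 other scalings.

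UQCRC2 and UQCR10 held more than 1 peak in a library and were tested with their peaks summed. UQCRC2, the partner of UQCRC1, had summed counts of 32.6 and 48.3 in the controls and 89.7 and 65.1 under tazemetostat, with a log2 difference of 0.93 ± 0.32 (SE, n = 2 against 2, adjusted p = 0.0322 in limma). UQCR10 had 46.0, 42.4, 59.4 and 49.4 and a log2 difference of 0.29 (adjusted p = 0.385 in limma). UQCRFS1 had 7.98 in control replicate 2 and 9.57 and 10.2 under tazemetostat, close to the lowest counts that were called at all, which ranged from 4.89 to 6.4 across the libraries.

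In complex V, 4 of 12 tested regions were called higher, against 42.7% of all regions, and the median log2 difference was 0.60. ATP5F1A, the partner of the catalytic beta subunit, had 8.14 and 17.6 in the controls and 27.2 and 26.7 under tazemetostat. Its controls differed from each other by more than its treated libraries did, and the log2 difference was 1.10 ± 0.33 (SE, n = 2 against 2, adjusted p = 0.0189 in limma). ATP5F1E, the epsilon subunit of the rotor, had 25.6, 29.0, 64.5 and 51.6 (adjusted p = 0.0154 in limma). ATP5PF and ATP5PO, parts of the peripheral stalk, were the other members called higher, with log2 differences of 1.00 and 0.78.

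Other complex V genes showed little difference on the scale of mapped tags. ATP5PD, also of the peripheral stalk, had 37.8 and 51.3 in the controls and 48.4 and 40.3 in treated cells. The groups overlapped and the log2 difference was 0.00 ± 0.30 (SE, n = 2 against 2). ATP5PB, another stalk subunit, had 26.2, 38.2, 40.8 and 28.6, and ATP5MF, a small membrane subunit, had 22.1, 28.2, 31.7 and 14.3. In these 2 genes as well tazemetostat replicate 2 lay within or below the controls. The log2 difference of ATP5MF was -0.22 ± 0.34 (SE, n = 2 against 2), and it was 0.20 per kilobase of peak and 0.33 without tazemetostat replicate 2. After median centring, ATP5MF, ATP5PD and ATP5PB stood at -0.98, -0.76 and -0.65, with adjusted p of 0.319, 0.261 and 0.375 in limma. The peripheral stalk genes thus included members called higher (ATP5PF and ATP5PO) and members whose groups overlapped (ATP5PD and ATP5PB).

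ATP5F1B and ATP5MC1, the 2 complex V genes with the highest counts among those tested, had log2 differences of 0.61 and 0.54 with adjusted p of 0.0857 and 0.119 in limma, and both were below 0 after median centring and with TMM and DESeq2 scaling. ATP5MC3, a second gene for the c subunit, held several peaks, and had summed counts of 8.14, 22.7, 33.7 and 37.6 and a log2 difference of 1.31 ± 0.37 (SE, n = 2 against 2, adjusted p = 0.0188 in limma on summed peaks). The third c subunit gene, ATP5MC2, had 19.2, 24.4, 35.3 and 30.9 at a region centred 1260 bp from the GENCODE 5′ end, over its RefSeq start. The genes of the c subunit encode the same mature protein, and in each of them both treated libraries lay above both controls, as at 81.6% of all tested regions.

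Width was compared next, since a wider peak holds more tags. The median width over tested member regions was 500 and 620 bp in the controls and 651 and 703 bp under tazemetostat, against 409, 502, 579 and 585 bp over all tested regions. The median log2 difference in width was 0.35, against 0.29 over all tested regions, and it was 0.12 without control replicate 1. Tazemetostat peaks were wider without overlap between groups at 12 of 29 member regions (41.4%), against 48.0% of all regions, and narrower at 3, against 2.78% of all regions. Of the 4360 tested regions at coding 5′ ends, 49.8% were wider and 104 narrower in this way. By complex the median width difference was 0.49 for complex I, -0.05 for complex II, 0.52 for complex III and 0.19 for complex V. NDUFB4 went from 384 and 544 bp to 820 and 707 bp, and UQCRH from 300 and 300 bp, the smallest width the caller gives, to 466 and 481 bp. SDHC had 582 and 473 bp in the controls and 391 and 466 bp under tazemetostat.

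**Figure D5:**
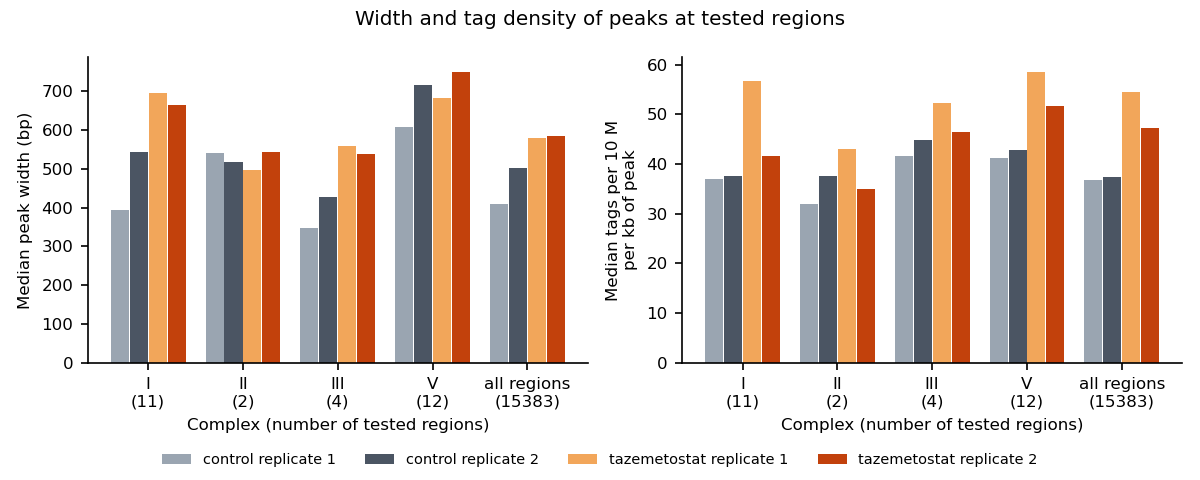
Median peak width (bp, left) and median tags per 10 M mapped tags per kilobase of peak (right) in each of the 4 libraries, for tested member regions by complex and for all 15383 tested regions, with the number of regions in brackets. In complex V the widths were 608 to 750 bp in all libraries, while in complex I they went from 394 and 544 bp in the controls to 695 and 664 bp.

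Tags per kilobase of peak give the level with width removed. The median over tested member regions was 37.0 and 41.7 in the controls and 56.8 and 44.6 in treated cells. Control replicate 2 lay close to tazemetostat replicate 2. Over all tested regions it was 36.8, 37.4, 54.4 and 47.2. Groups did not overlap, with tazemetostat higher, at 19 of 29 member regions (65.5%), against 72.3% of all regions and 77.3% of tested regions at coding 5′ ends. On this scale 8 of 29 member regions were called higher by limma, against 32.9% of all regions, and the median log2 difference was 0.40 for the members and 0.41 for all tested regions.

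Inside the genes, beyond 1 kb of the 5′ end, a region with peaks in both treated libraries but in no control was found at 6 of 67 members (8.96%), against 18.4% of all coding genes, which are of other lengths. Among them were NDUFA10, NDUFA12, NDUFB9, NDUFC1 and ATP5MC2. The normalised tag counts ranged from 6.78 to 18.6. Regions with peaks in both controls alone were found in no member, and in 0.79% of all coding genes.

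Other genes of the pathway were counted in the same way, to be read against the 31.7% of coding genes with a peak in all 4 libraries and the 42.7% of tested regions called higher. Of 12 genes for complex IV and cytochrome c, 6 had a peak in all 4 libraries, and 2 of 6 tested regions were called higher by limma with a median log2 difference of 0.57. Of 22 assembly factors, 14 had a peak in all 4 libraries, and 3 of 11 tested regions were called higher, with a median of 0.68. Of 14 factors of mitochondrial gene expression and biogenesis, 8 had a peak in all 4 libraries, and 6 of 8 tested regions were called higher, with a median of 0.98. These 8 were NRF1, GABPA, GABPB1, YY1, TFAM, TFB1M, TFB2M and POLG. ESRRA, PPARGC1A, PPARGC1B and TWNK had no peak in any library. Cytosolic ribosomal protein genes were called higher at 22 of 40 tested regions, with a median of 0.79. After median centring the medians were -0.19 for complex IV and cytochrome c, -0.08 for assembly factors, 0.22 for biogenesis factors and 0.03 for ribosomal protein genes, so that of the first 2 lists turned below 0.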

How the data were processed

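ATAC-seq had been performed on 4 HepG2 libraries (2 control, 2 tazemetostat). As the labels and the methods of the study state, reads were trimmed (Trim Galore 0.6.6), aligned to hg38 with Bowtie2 2.3.5.1, and peaks were called per library with HOMER 4.11.1. A shift of read ends for the transposase is not given in the sources used here. The deposited peak lists give a normalised tag count (a signal per 10 M mapped tags), a whole-number tag count as score, the fold (ratio) over local background and its p-value. Per the file headers the FDR was 0.001 (0.05 in the methods), the local fold at least 4, the smallest peak 300 bp, and the fragment length 200 bp in controls and 144 bp under tazemetostat, which cannot be told apart from the treatment. Multiplying the deposited normalised counts by the library totals gave whole tag counts for 100% of peaks (within 0.25 tags), and these sum to the header totals.

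Peaks overlapping by 1 bp were merged. A member's region was the one nearest its GENCODE 44 5′ end within 1 kb. Regions with exactly 1 peak per library were tested on log2(normalised tag count + 1) with limma 3.58.1 in R 4.3.3, two-sided, with group as the only term and Benjamini-Hochberg adjustment over all 15383 regions. Each SE given with a log2 difference is moderated by limma towards the spread over all regions, so it is not the spread of that gene alone. Fold changes on this scale understate the change of low regions. Alternatives were median centring, tags per kilobase, other pseudocounts, windows, peak thresholds and annotated starts, summed peaks, edgeR 4.0.16 and DESeq2 1.42.0 on the recovered tags, a replicate block and leaving out each library. On simulated counts for tazemetostat against control over 15383 regions with 200 changed by 3-fold, limma recovered 92% and 2.65% of its calls were false. The simulated counts held no shift common to all regions, while the data had a median log2 difference of 0.70. These rates therefore do not apply to the calls reported here. Counting error alone follows from the tags within each peak, such as 25 to 44 at SDHC. PCR copies among these tags may not be independent.

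The genes named were the tested members highest and lowest in level and in log2 difference in each complex, every member without a peak in all 4 libraries, members that passed under another scaling or were called lower, and 10 core subunits. Other genes are named where a count or pattern needs it, after their values were seen. Members, lists and motifs were chosen with earlier results of these data known. Results for some genes are not reported here.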

Additional observations from a re-analysis of the deposited data

How the results depend on the processing

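The number of members with a peak in all 4 libraries (35 of 67) ranged from 32 to 41 under windows of 500 bp or 2 kb, peak centres, any transcript start, equal numbers of peaks and the RefSeq start (40, chosen after seeing the data). It was 35 to 47 on leaving out each library, and 2 with peaks of at least 8-fold over local background. Over all coding genes the shares were 29.3% to 37.7% under those windows, centres, starts and peak numbers, the RefSeq start aside. They were 31.8% to 39.3% on leaving out each library and 1.73% at 8-fold. The 13 members higher in limma became 0 with median centring, 0 with edgeR and TMM, 0 with DESeq2 size factors, 8 per kilobase and 2 of 2 at the 8-fold threshold, which leaves few regions, and 0 to 18 on leaving out each library, where the lone library of a group is assumed to vary like the other group. They were 9 to 17 under the other alternatives except the replicate block. Over all regions, 1366 of 2423 were called higher at the 8-fold threshold and 5337 of 9862 at a mean count of at least 20. With pseudocounts of 0.5 and 5 the counts were 6352 and 7515 of 15383, and with edgeR on mapped tags 7455. No member was lower in limma under any alternative. The median log2 difference of members (0.738) was -0.0219 with median centring, 0.399 per kilobase, 0.0186 with TMM and 0.0115 with DESeq2, and 0.554 to 0.915 on leaving out each library. The median log2 width difference (0.35) was 0.756 at the 8-fold threshold and 0.121 to 0.428 on leaving out each library. Same-numbered libraries did not deviate together (r = -0.00246 over 15383 regions and 2 pairs), but this cannot show whether they were handled as pairs. With a replicate block 8 members were higher and 0 lower, against 5046 and 27 of all 15383 regions. Of 29 member regions 16, 14 and 13 lay below 0 under median centring, TMM and DESeq2, against 2 on mapped tags. Among the genes of the naming rule, the log2 differences that turned below 0, given for median centring, TMM and DESeq2, were -0.15, -0.0954 and -0.096 for ATP5F1B, -0.219, -0.171 and -0.173 for ATP5MC1, -0.204, -0.15 and -0.154 for NDUFA11, -0.302, -0.236 and -0.239 for NDUFA2, -0.0377, -0.107 and -0.0759 for NDUFV1, -0.16, -0.0961 and -0.0923 for SDHB, -0.246, -0.243 and -0.228 for UQCR11, and -0.0394 for NDUFB6 with centring alone. ATP5MF turned above 0 at 0.196 per kilobase and at 0.332 without tazemetostat replicate 2, and was -0.763 without tazemetostat replicate 1. Centring and both size factors set most regions to no change by construction. For the other alternatives the cause was not tested. Depth limits the members with few tags, and with 2 libraries per group a difference that did not pass is not shown to be absent. A region without a peak in a library has no value there, so low accessibility and a missed call cannot be told apart.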
